A study of Mus musculus with 30 samples.

Results

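Cytochrome P450 genes were followed in the kidney and muscle of 15 mice, as all genes whose symbol starts with Cyp and a number. There were 71 such genes among 17782 measured, and each was represented by its brightest probe set in the tissue, from the probe sets annotated to a single symbol. The CYP2 family held 33 of them, CYP4 13, CYP3 5, CYP1 and CYP11 3 each, CYP7, CYP26 and CYP27 2 each, and CYP8, CYP17, CYP20, CYP21, CYP24, CYP39, CYP46 and CYP51 1 each. Some family members, such as Cyp2c44 and Cyp4a10, are not analysed here under those symbols. RefSeq lists Cyp2c44 as another name of Cyp2c23, which was measured.

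P450 enzymes hold a heme group and use oxygen, with electrons from a partner protein, to oxidise small molecules. Families CYP1 to CYP3 are known mainly for drugs and other foreign compounds, and CYP4 for the omega end of fatty acids and eicosanoids. CYP2C and CYP2J enzymes make epoxides of arachidonic acid that act on kidney vessels and salt transport. The other families build or break down sterols, bile acids, steroid hormones, vitamin D and retinoic acid. In the kidney most drug and fatty acid P450s belong to the proximal tubule.

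All animals were 6 weeks old. The mutants were Kif3aΔTub mice, labelled Kif3aKSPCre, in which Cre from the kidney-tubule Ksp promoter deletes Kif3a, a motor subunit needed for primary cilia. Control animals were labelled WT. Animals of both genotypes were given either PBS or the ligand trap sActRIIB-Fc, made from the soluble part of activin receptor IIB, at 10 mg/kg a week into the peritoneum, 2 times by week 6. Per tissue there were 3 wild-type animals on PBS (untreated here) and 4 in each other group. The labels call samples of a group replicates without naming litters, so p-values measure the spread between these samples.

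Levels are the deposited log2 intensities, 1 per array, and a difference of 1 is a doubling of signal. Changes are given with the standard error from limma, and a gene counts as called where its p, adjusted by Benjamini-Hochberg over the 17782 genes, was under 0.05. Array signal has no count behind it, so the number of arrays limits the precision. A gene is termed dim where no group mean passed the 95th percentile of 78 odorant, pheromone and taste receptor probe sets, at 5.29 in kidney and 5.71 in muscle. In kidney 38 P450 genes passed this level in at least 1 group and 29 in every group, and in muscle 20 and 11 did. Levels of different genes were not compared, because probe sets differ in brightness.

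Kif3a was at 7.76, 7.89 and 7.84 in untreated wild-type kidneys and at 7.25, 7.39, 7.22 and 7.48 in untreated mutants, without overlap (-0.50 ± 0.149, limma adjusted p = 0.011). In treated kidneys it was at 7.72, 7.34, 7.84 and 7.70 in wild type and at 7.37, 7.75, 7.39 and 8.0 in mutants, which overlap (-0.02 ± 0.138, adjusted p = 0.905). It therefore checks the labels of the untreated kidneys only, and "treated mutant" below means the kidneys labelled so. Kidney markers bear on all kidney results. The mean of 14 proximal tubule markers lay between 12.42 and 12.53 in all wild-type kidneys, between 8.82 and 10.62 in mutants on PBS and between 10.40 and 11.04 in treated mutants. None of the 14 was dim, and all were called lower in mutants on PBS. Means of 10 macrophage markers lay between 6.45 and 6.82 in wild type on PBS and between 9.76 and 10.23 in mutants on PBS. The part of either in the results was not tested. In bulk tissue, fewer cells of a type and less RNA per cell cannot be told apart. The Y-linked Eif2s3y, Kdm5d and Uty were above the dim level in every kidney group and Xist was dim. All 9 muscle fibre markers were above the dim level in muscle.

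In untreated mutant kidneys 26 of the 71 P450 genes were lower (36.6%) and 9 higher (12.7%). Over all genes 26.7% were lower and 24.9% higher. The median change was -0.24 for the P450 genes and -0.08 over all genes. Among the 38 P450 genes above the dim level 17 were lower (44.7%) and 8 higher (21.1%), where all 12641 genes above it gave 28% and 33.1%. Passing that level can depend on the group in which a gene is high, so these shares describe and do not test. The 33 dim P450 genes had 9 lower, or 27.3%, close to the 23.7% of all 5141 dim genes. By family, CYP2 had 17 lower and 1 higher of 33, CYP4 5 lower and 4 higher of 13, and CYP3 1 higher of 5, all of them dim.

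The promoters of 4 genes described below are shown as examples picked by hand. Each gene changed by more than 2 on the log2 scale in untreated mutant kidneys and holds 1 searched motif, set in capitals. Cyp2j13 also changed by more than 2 and has a searched motif in its promoter, but is not shown. The sequences are the 250 bases before the RefSeq gene start in GRCm38.p6, and each gene lies on the minus strand. They are printed in the direction of transcription.
Cyp51, chr5:4104698-4104947: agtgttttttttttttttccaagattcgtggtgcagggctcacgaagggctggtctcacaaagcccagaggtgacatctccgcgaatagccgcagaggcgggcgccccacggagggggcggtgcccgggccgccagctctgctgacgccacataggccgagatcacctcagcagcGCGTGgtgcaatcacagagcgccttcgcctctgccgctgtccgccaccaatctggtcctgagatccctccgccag
Cyp2j5, chr4:96664120-96664369: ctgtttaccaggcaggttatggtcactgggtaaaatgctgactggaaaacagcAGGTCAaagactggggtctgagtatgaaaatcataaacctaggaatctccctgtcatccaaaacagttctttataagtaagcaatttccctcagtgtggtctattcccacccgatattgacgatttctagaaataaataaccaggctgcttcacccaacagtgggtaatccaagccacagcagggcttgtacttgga
Cyp2d26, chr15:82794246-82794495: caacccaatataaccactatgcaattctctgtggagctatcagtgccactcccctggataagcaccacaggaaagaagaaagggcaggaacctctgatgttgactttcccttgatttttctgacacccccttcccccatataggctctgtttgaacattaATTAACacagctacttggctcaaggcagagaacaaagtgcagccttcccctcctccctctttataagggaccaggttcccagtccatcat
Cyp1b1, chr17:79715062-79715311: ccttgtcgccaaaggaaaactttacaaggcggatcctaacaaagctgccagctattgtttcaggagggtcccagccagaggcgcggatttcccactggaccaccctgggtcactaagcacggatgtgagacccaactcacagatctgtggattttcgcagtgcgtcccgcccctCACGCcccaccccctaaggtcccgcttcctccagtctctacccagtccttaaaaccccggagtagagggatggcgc

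The capitals mark the dioxin response core GCGTG in Cyp51, 71 to 75 bases before the start, and on the opposite strand in Cyp1b1, 72 to 76 bases before it. In Cyp2j5 they mark the nuclear receptor motif AGGTCA, 192 to 197 bases before the start. In Cyp2d26 they mark the HNF1 motif GTTAAT on the opposite strand, 85 to 90 bases before it. Both strands were searched, and 50 of the 71 genes had a promoter in the table. GCGTG was found in 5 of 8 promoters of P450 genes that were higher in untreated mutant kidneys, 6 of 20 of those lower and 2 of 22 of those not called, against 28.2% of all 27025 promoters. AGGTCA was in 3 of 20 lower, 0 of 8 higher and 7 of 22 not called (13.8% of all promoters), and GTTAAT in 2 of 20 lower and in no other P450 promoter (6.52% of all). As 2 direct repeats 1 base apart, AGGTCA was in no P450 promoter and in 0.037% of all. A match to these letters is a description and not a binding site.

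CYP2D genes form a run of neighbours in RefSeq, with 8 measured here, and 4 of them were lower in untreated mutant kidneys. Cyp2d12 showed the largest fall of any P450 gene. It was at 7.38, 7.25 and 7.38 in untreated wild type and at 3.09, 3.38, 3.19 and 3.30 in mutants, below the dim level in every mutant kidney (-4.09 ± 0.195, limma adjusted p = 7.96e-10). Background limits a difference that ends below the dim level. Cyp2d26, whose promoter is shown above, was at 11.24, 11.15 and 11.08 against 7.72, 9.13, 9.19 and 8.98 (-2.40 ± 0.433, adjusted p = 0.000262). Cyp2d9, known as a male-predominant steroid hydroxylase, fell by 1.44 ± 0.335. Cyp2d22, often described as the mouse counterpart of human CYP2D6, was at 6.94, 6.98 and 6.99 against 6.56, 7.45, 6.98 and 7.24, which overlap (0.08 ± 0.286). A second Cyp2d22 probe set gave 0.92 ± 0.273, so its probe sets differ. The fourth lower member, Cyp2d34, was dim (-0.39). Probes of such close paralogs can share signal, so values of single CYP2D, CYP2J, CYP4A and CYP4F genes carry that uncertainty.

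The 5 CYP2J genes are also neighbours, and 4 were lower. Cyp2j5, a renal epoxygenase of arachidonic acid, was at 13.17, 13.08 and 13.09 in untreated wild type and at 9.44, 11.89, 10.98 and 10.68 in mutants (-2.37 ± 0.363, limma adjusted p = 5.96e-05). Its second probe set gave -3.07 ± 0.376. Cyp2j13 was at 10.60, 10.50 and 10.49 against 5.91, 8.02, 7.35 and 7.49 (-3.34 ± 0.748, adjusted p = 0.00158). For both genes every mutant kidney lay below every wild-type kidney, and mutant replicate 1 was the lowest. Cyp2j11 fell by 2.77 ± 0.382 and Cyp2j9 by 1.14 ± 0.17. Cyp2j6 was not called (-0.15 ± 0.118). Cyp2c23, the main renal CYP2C epoxygenase, was at 7.78, 8.64 and 8.71 against 4.40, 4.97, 7.23 and 6.62 (-2.57 ± 0.554, adjusted p = 0.00117). The other 8 CYP2C genes form a run of neighbours, all of them dim, with 4 called lower by 0.27 to 0.54.

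Cyp2e1, which oxidises ethanol and small solvents, was at 12.97, 12.83 and 12.81 in untreated wild type and at 9.28, 11.56, 9.40 and 9.37 in untreated mutants (-2.97 ± 0.532, limma adjusted p = 0.000248). Mutant replicate 2 stood over 2 units above the other mutants and still below wild type. Its adipocyte marker mean, over 7 measured markers, was 8.79, where the other untreated mutants had 7.95, 6.38 and 5.96. It also had the highest proximal tubule mean of its group, 10.62. The part of either in the level of Cyp2e1 was not tested. Cyp2s1, an extrahepatic enzyme, was the only CYP2 gene called higher, at 7.70, 7.97, 7.24 and 7.51 in mutants against 6.90, 6.89 and 6.97 (0.68 ± 0.217, adjusted p = 0.016). Cyp2r1, a vitamin D 25-hydroxylase, was dim (-0.26 ± 0.167, adjusted p = 0.204).

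CYP4 genes moved in both directions. Cyp4b1, which hydroxylates short fatty acids and some foreign compounds, was at 13.71, 13.61 and 13.58 in untreated wild type and at 9.97, 11.36, 11.16 and 11.01 in mutants (-2.76 ± 0.309, limma adjusted p = 2.72e-06). Cyp4a31 was at 11.28, 11.26 and 11.34 against 8.40, 10.50, 9.15 and 9.06 (-2.02 ± 0.383, adjusted p = 0.000411). In both genes the groups were apart. Its neighbours Cyp4a12a (-0.79 ± 0.458) and Cyp4a14 (-0.66 ± 0.677) were not called. Cyp4a14, a PPARα-responsive fatty acid hydroxylase, was at 10.96, 10.04 and 10.75 against 8.77, 12.20, 9.34 and 9.40. Mutant replicate 2 exceeded every untreated wild-type kidney, and the other 3 mutants lay below them.

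Cyp4v3, listed by RefSeq also as Cyp4v2, a fatty acid hydroxylase whose human counterpart is the gene of Bietti crystalline dystrophy, was at 6.04, 6.04 and 6.01 in untreated wild type. In mutants it was at 7.63, 7.77, 7.81 and 7.90, far outside the spread of either group (1.75 ± 0.0861, limma adjusted p = 1.11e-09). The CYP4F run of neighbours had 3 lower and 2 higher of 6. Cyp4f13 was at 7.37, 7.32 and 7.53 against 6.46, 6.86, 6.44 and 7.07 (-0.70 ± 0.177), and Cyp4f14, a leukotriene B4 hydroxylase, was dim (-1.29 ± 0.135). Cyp4f16 was higher (0.97 ± 0.178), as was Cyp4f39 (0.45 ± 0.166). Cyp4f18, which acts on leukotriene B4 in neutrophils and lies outside this run, was called higher (0.85 ± 0.193), while its other probe set gave -0.28. The means of Cyp4f18 in both untreated groups, and of Cyp4f39 in untreated wild type, were below the dim level, so background limits these differences.

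Cyp1b1 had the largest rise. This enzyme of estradiol and polycyclic hydrocarbon metabolism is expressed mainly in mesenchymal cells. It was at 8.27, 8.05 and 8.42 in untreated wild-type kidneys and at 10.63, 10.31, 10.91 and 11.23 in mutants, without overlap (2.52 ± 0.274, limma adjusted p = 1.93e-06). A second probe set gave 1.86 ± 0.215, and the remaining one, of low signal, -0.26 ± 0.132. Means of 8 fibroblast markers, with 7 called higher and 0 lower, were 8.31 to 8.79 in wild type and 10.12 to 10.59 in mutants, and their part in the rise was not tested. Cyp1a1, the standard target of the dioxin receptor, was dim, at 5.27, 5.10 and 5.09 against 4.10, 4.39, 4.33 and 4.37 (-0.86 ± 0.115). The receptor gene Ahr was higher (1.71 ± 0.193).

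**Figure D1:**
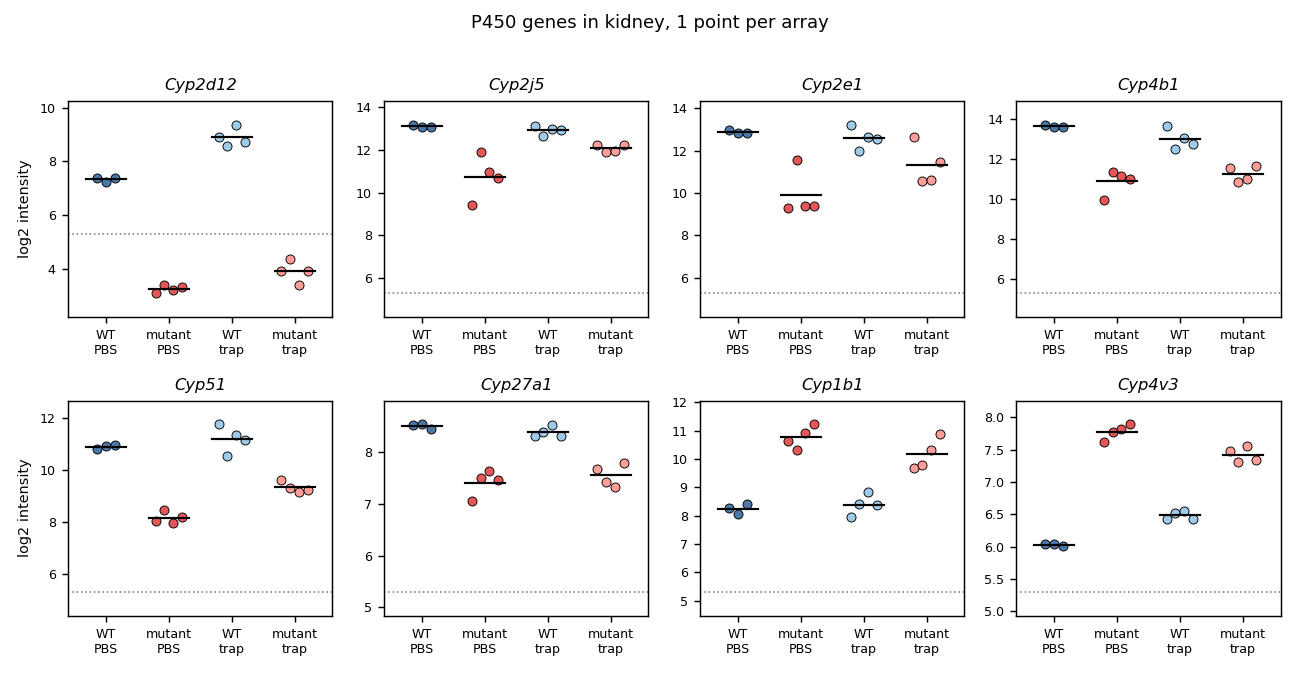
Log2 intensity of 8 P450 genes in kidney, 1 point per array, with the group mean as a bar and the dim level (5.29) as a dotted line; trap is sActRIIB-Fc. Untreated mutants lie below untreated wild type for the first 6 genes and above it for Cyp1b1 and Cyp4v3, and Cyp2d12 is below the dotted line in all mutants.

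Among the sterol enzymes, Cyp51, the lanosterol demethylase of cholesterol synthesis, was at 10.79, 10.92 and 10.94 in untreated wild-type kidneys. In untreated mutants it was at 8.01, 8.46, 7.96 and 8.20 (-2.73 ± 0.213, limma adjusted p = 7.92e-08). Its other probe sets gave -2.79 ± 0.227 and -1.81 ± 0.266. Of 17 other sterol synthesis genes 7 were lower and 1 higher (median -0.31), led by Idi1 (-1.99 ± 0.353), Mvd (-1.77 ± 0.145) and Hmgcs1 (-1.21 ± 0.252). Idi1 and Mvd act in the mevalonate steps before squalene, and Hmgcs1 at the head of the pathway. Fdft1, squalene synthase, was the higher one (0.75 ± 0.126). This list was chosen with results of these data known, as were the others below.

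Bile acid and oxysterol P450s split. Cyp7b1, the oxysterol 7-alpha-hydroxylase, was at 11.79, 11.999 and 11.48 in untreated wild type and at 8.89, 8.93, 8.83 and 9.50 in mutants (-2.72 ± 0.886, limma adjusted p = 0.0183). Its standard error is wide because the treated wild-type kidneys, described below, enter the shared spread. Cyp27a1, a mitochondrial sterol 27-hydroxylase, was at 8.52, 8.53 and 8.44 against 7.05, 7.49, 7.64 and 7.45 (-1.09 ± 0.134, adjusted p = 6.57e-06). Cyp39a1, which 7-alpha-hydroxylates 24-hydroxycholesterol, went the other way, at 5.10, 5.04 and 4.90 against 6.02, 6.31, 6.45 and 6.33 (1.26 ± 0.253, adjusted p = 0.000652). Its wild-type level was below the dim level. Cyp7a1 and Cyp8b1, of hepatic bile acid synthesis, were dim and not called.

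Vitamin D P450s had wide spread. Cyp27b1, the 1-alpha-hydroxylase that activates vitamin D, was at 6.31, 8.24 and 6.19 in untreated wild type and at 7.74, 7.998, 8.61 and 8.85 in mutants. The groups overlapped through wild-type replicate 2, and the difference was not called (1.39 ± 0.607, limma adjusted p = 0.0678). Cyp24a1, which inactivates vitamin D, was at 8.88, 9.28 and 8.58 against 7.45, 8.91, 8.07 and 9.25 (-0.49 ± 0.463, adjusted p = 0.385). Of 12 other vitamin D and phosphate handling genes 10 were lower and 2 higher. The largest changes were in the phosphate carriers Slc34a3 (-3.13 ± 0.398) and Slc34a1 (-3.06 ± 0.292) and the endocytic receptor Lrp2 (-2.70 ± 0.295). Of these Slc34a1 and Lrp2 are also on the proximal tubule list, all 14 of whose genes were lower.

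Cyp26b1, which degrades retinoic acid, was at 5.87, 6.01 and 5.84 in untreated wild-type kidneys and at 5.81, 5.75, 5.72 and 5.71 in mutants (-0.16 ± 0.202, limma adjusted p = 0.525), and Cyp26a1 was dim. Of 15 other retinoic acid genes 4 were higher and 1 lower. Aldh1a2 (3.38 ± 0.333) and Aldh1a1 (1.88 ± 0.221), which make retinoic acid, rose, and Lrat, which stores retinol as esters, fell by 1.51 ± 0.331. Cyp20a1, an orphan P450, was at 8.75, 8.81 and 8.66 against 9.48, 9.33, 9.28 and 9.48 (0.65 ± 0.18, adjusted p = 0.00706). Cyp3a13, the 1 higher CYP3 gene, was dim, at 3.83, 3.88 and 3.65 against 4.94, 4.47, 4.11 and 4.43 (0.70 ± 0.152). Cyp46a1, a cholesterol 24-hydroxylase, was not called (-0.28 ± 0.157).

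Genes that supply or control P450 enzymes were set beside them. Of 17 redox partner and heme genes 11 were lower and 1 higher, with Uros (-1.65 ± 0.192) and Cpox (-1.38 ± 0.187) of heme synthesis and the mitochondrial electron donor Fdx1 (-1.29 ± 0.359) leading. The higher one was Cyb5r3, a cytochrome b5 reductase (1.06 ± 0.146). Of 22 transcription factors 12 were lower and 3 higher, led by the bile acid receptor Nr1h4 (-2.41 ± 0.264), Hnf4a (-1.78 ± 0.157) and the dioxin receptor Ahr named above. Of 18 eicosanoid genes without a Cyp symbol, a list that includes Ptgis, a P450 by structure, 7 were higher and 2 lower. Alox5ap, the 5-lipoxygenase activator, rose by 2.60 ± 0.194 and Ephx1, microsomal epoxide hydrolase, by 1.51 ± 0.151. Ephx2, which hydrolyses P450 epoxides of arachidonic acid, fell by 2.21 ± 0.33. Of 10 steroid hormone genes 5 were lower and 2 higher, with Hsd3b2 (-4.78 ± 0.507) and Hsd17b2 (-3.06 ± 0.409) lower and Hsd11b2, which inactivates glucocorticoid, higher (1.65 ± 0.202). The shares over all genes given above, 26.7% lower and 24.9% higher, are the background for these counts.

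For the trap in mutant kidneys limma called 3 of 71 P450 genes (4.23%), where 2.4% of all genes were called. Cyp51 was at 9.61, 9.30, 9.15 and 9.20 in treated mutants, above all untreated mutants and below all wild-type kidneys of either treatment (1.16 ± 0.198, adjusted p = 0.00615). Cyp4v3 was at 7.48, 7.31, 7.55 and 7.34, below all untreated mutants (-0.36 ± 0.0797, adjusted p = 0.0292). The third, Cyp3a13, was dim (-0.57 ± 0.141, adjusted p = 0.0462). At an unadjusted p under 0.05 there were 20, and no share of all genes at that level is given here. Cyp2j5 was at 12.24, 11.88, 11.94 and 12.23 (1.32 ± 0.336, adjusted p = 0.0518) and Cyp2e1 at 12.63, 10.59, 10.62 and 11.46 (1.43 ± 0.492, adjusted p = 0.155), and neither was called. Cyp2f2 was at 7.55, 6.30, 5.75 and 4.79 against 4.25, 5.47, 3.80 and 3.91 in untreated mutants (1.74 ± 0.459, adjusted p = 0.0612). Among the kidney groups only treated mutants had a mean of Cyp2f2 above the dim level.

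The number of called P450 genes varied when single kidneys were left out. Shares of all genes called in these fits are not given here, so the counts have no background. Without untreated mutant replicate 2, the kidney with high Cyp2e1 and Cyp4a14, 8 P450 genes were called, 7 of them higher under the trap. They were Cyp51 (1.26), Cyp2j11 (1.49), Cyp4a31 (1.59), Cyp2j5 (1.71), Cyp4a14 (1.86), Cyp2e1 (1.98) and Cyp2f2 (2.11), with Cyp4v3 lower (-0.36). Without treated mutant replicate 2 or untreated mutant replicate 4, only Cyp51 was called. Cyp51 was called without any 1 of the 8 mutant kidneys, at 1.06 to 1.26. The proximal tubule means, given above, were also higher in 3 of 4 treated mutants than in every untreated mutant. Adipocyte marker means were 10.11, 8.56, 8.89 and 8.22 in treated mutants. Their part in these values was not tested. Of the 17 sterol synthesis genes beside Cyp51 the median change under the trap in mutant kidneys was 0.27. The oxysterol receptor Nr1h3 (0.67 ± 0.134) and the FGF23 co-receptor Kl (0.58 ± 0.134) rose, and the calcium channel Trpv6 (-0.65 ± 0.136) and Aldh1a1 (-0.86 ± 0.205) fell. These 4 were the only calls of the 7 lists in that comparison.

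In wild-type kidneys limma called 2 of 71 P450 genes under the trap (2.82%), where 0.877% of all genes were called. Cyp2d12 rose from 7.25 to 7.38 untreated to 8.92, 8.58, 9.36 and 8.70 (1.56 ± 0.195, adjusted p = 0.00357). Cyp4v3 rose from 6.01 to 6.04 to 6.43, 6.52, 6.55 and 6.43 (0.45 ± 0.0861, adjusted p = 0.0248). In neither gene did the groups overlap. Leaving out any 1 of the 7 kidneys kept the Cyp2d12 call. Cyp4v3 lost it without any 1 of the 3 untreated kidneys or without treated replicate 3 or 4. Without treated replicate 1 there were 6 calls, adding Cyp7b1 (-3.21), Cyp2j13 (-2.74), Cyp26b1 (0.97) and Cyp2d22 (1.12). The share of all genes called without that kidney is not given here.

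The treated wild-type kidneys were themselves split for some P450 genes. Cyp7b1 was at 12.39, 7.30, 10.85 and 7.49 in replicates 1 to 4, and Cyp2j13 at 10.66, 6.93, 9.20 and 7.25. In both genes replicates 2 and 4 reached the range of the mutants or went below it, and replicate 1 exceeded every untreated wild-type kidney. The changes were not called (-2.25 ± 0.886 and -2.02 ± 0.748). The mean of 5 androgen-responsive kidney genes (Kap, Odc1, Gusb, Slco1a1 and Acsm3) was 11.91, 10.00, 10.53 and 9.84 in the same kidneys, against 11.72 to 11.86 in untreated wild type. The proximal tubule mean was 12.42 to 12.53 in all 4. Fibroblast marker means were 8.39, 9.47, 8.68 and 9.01 in replicates 1 to 4, and macrophage means 6.84, 7.58, 6.86 and 7.10. Both were highest in replicates 2 and 4. Untreated wild-type kidneys had 8.31 to 8.79 for fibroblast markers, exceeded by replicates 2 and 4 only. They had 6.45 to 6.82 for macrophage markers, exceeded by all 4 replicates. Cyp2d9, often counted as androgen-dependent, was at 10.82, 10.17, 10.79 and 9.58 there, within or above the untreated range of 9.45 to 9.89. Which of these differences goes with the trap was not tested.

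**Figure D2:**
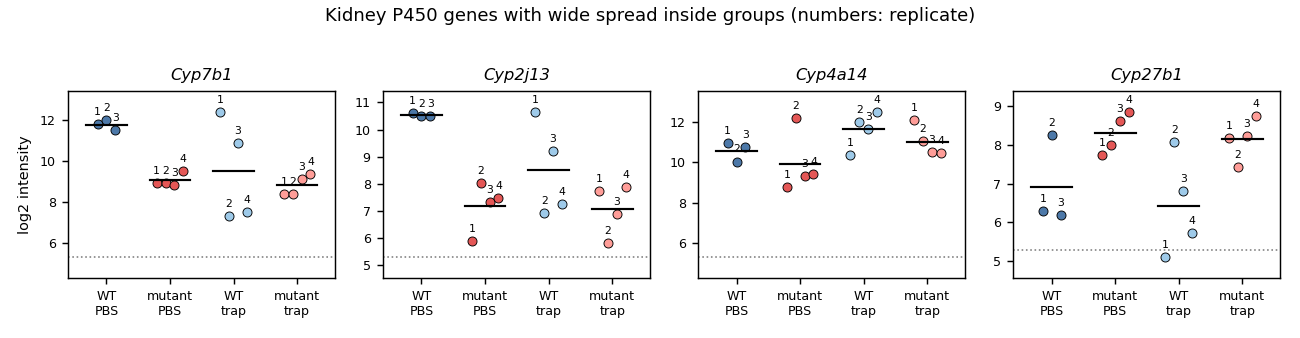
Log2 intensity of 4 P450 genes with wide spread in kidney, 1 point per array numbered by replicate, with group means as bars and the dim level dotted. Treated wild-type replicates 2 and 4 are low for Cyp7b1 and Cyp2j13, untreated mutant replicate 2 is high for Cyp4a14 (12.20), and untreated wild-type replicate 2 is high for Cyp27b1 (8.24).

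Cyp4v3 was the only P450 gene whose genotype effect was called different between PBS and the trap. That was 1 of 71 P450 genes (1.41%), where 1.38% of all genes were called (interaction -0.81 ± 0.117, limma adjusted p = 0.00469). At an unadjusted p under 0.05 there were 12 P450 genes, and no share of all genes at that level is given here. The genotype difference of Cyp4v3 was 1.75 under PBS and 0.94 under the trap, as wild type rose and mutants fell. This call was kept without any 1 of the 15 kidneys. The interaction of Cyp51 was 0.86 ± 0.291 (adjusted p = 0.177). It was called without treated wild-type replicate 1 (1.05), as were Cyp2e1 (2.27) and Cyp2j5 (1.90) without untreated mutant replicate 2.

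Between treated mutants and treated wild type 24 P450 genes were lower (33.8%), where 24.2% of all genes were. There were 7 higher (9.86%), where 22.2% of all genes were. Of the 26 genes lower under PBS 20 were lower here too (76.9% of the PBS calls and 83.3% of those under the trap), and of the 9 higher 5 were (55.6% and 71.4%). These 2 comparisons share no animals, but they share an estimate of the spread from the same fit. The same overlap over all genes is not given here, so these shares have no background. Cyp2d12 (-4.99 ± 0.18), Cyp2d26 (-2.0 ± 0.401), Cyp2j11 (-1.99 ± 0.354), Cyp51 (-1.87 ± 0.198), Cyp4b1 (-1.71 ± 0.286), Cyp4a31 (-1.68 ± 0.355), Cyp2c23 (-1.63 ± 0.513) and Cyp2d9 (-1.53 ± 0.31) had the largest falls. Cyp1b1 (1.77 ± 0.253), Cyp27b1 (1.71 ± 0.562), Cyp2f2 (1.28 ± 0.459), Cyp4v3 (0.94), Cyp39a1 (0.82), Cyp4f18 (0.82) and Cyp4f16 (0.44) were higher. The treated wild-type means of Cyp2f2, Cyp39a1 and Cyp4f18 were below the dim level, so background limits their differences. The call of Cyp4f16 was lost in 12 of 17 alternatives and that of Cyp2f2 in 8 of 17, and Cyp2f2 was at 0.79 without treated mutant replicate 1. Cyp27b1 was at 8.17, 7.43, 8.22 and 8.74 in treated mutants and 5.10, 8.07, 6.82 and 5.72 in treated wild type, overlapping through wild-type replicate 2 (limma adjusted p = 0.021). Cyp7b1 (-0.71 ± 0.82) and Cyp2j13 (-1.43 ± 0.692), split within wild type, were not called here.

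Treated mutants against untreated wild type had 23 P450 genes lower (32.4%), where 25.3% of all genes were. They had 4 higher (5.63%), where 22.1% of all genes were. Cyp2j13 (-3.45 ± 0.748), Cyp2d12 (-3.44 ± 0.195), Cyp7b1 (-2.96 ± 0.886), Cyp4b1 (-2.36 ± 0.309), Cyp2j11 (-1.68 ± 0.382), Cyp51 (-1.57 ± 0.213), Cyp2e1 (-1.54 ± 0.532) and Cyp2d26 (-1.47 ± 0.433) were the largest of the falls. The rises were Cyp1b1 (1.91 ± 0.274), Cyp4v3 (1.39 ± 0.0861), Cyp4f18 (1.10 ± 0.193) and Cyp4f16 (0.80 ± 0.178). That of Cyp4f18 started below the dim level. Cyp4a31 (-0.84 ± 0.383), Cyp2d9 (-0.83 ± 0.335) and Cyp2c23 (-1.07 ± 0.554) were not called, with limma adjusted p values of 0.084, 0.0532 and 0.124.

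The steroid hormone P450s of the adrenal stood apart in a single kidney, treated mutant replicate 2. Cyp11a1, which cuts the cholesterol side chain, was at 11.01 there and at 3.75 to 4.32 in the other 14 kidneys. Cyp11b1, the 11-beta-hydroxylase, was at 11.48 against 3.75 to 4.43. Cyp11b2, aldosterone synthase, was at 8.34 against 4.16 to 4.64, and Cyp21a1, the 21-hydroxylase, at 10.48 against 5.34 to 6.00. The mean of 10 adrenal cortex and medulla markers was 9.26 in that kidney and 4.57 to 5.09 in the other 14, and Hsd3b1 (13.47), Chgb (11.08) and Star (11.05) were high. The CYP11 genes passed the dim level through this kidney alone. None of the 4 genes was called in any of the 6 kidney comparisons, and the lowest adjusted p was 0.232, for Cyp11b1. Without this kidney Cyp11b1 (-0.32, adjusted p = 0.0388) and Cyp11b2 (-0.32, adjusted p = 0.00985) were called lower in untreated mutants, at dim levels. Without it 37 P450 genes were called between the genotypes under PBS in place of 35.

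**Figure D3:**
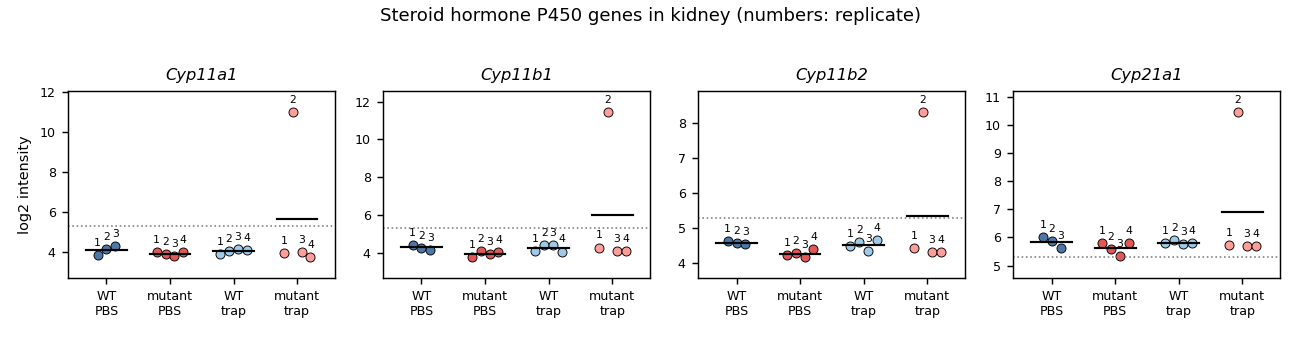
Log2 intensity of the 4 steroid hormone P450 genes in kidney, 1 point per array numbered by replicate, with group means as bars and the dim level dotted. Treated mutant replicate 2 lies at 8.34 to 11.48, and no other kidney exceeds 6.00.

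In muscle 4 of 71 P450 genes were called between untreated mutants and wild type, or 5.63%, where 16% of all genes were. Of the 20 P450 genes above the dim level 2 were higher (10%) and 2 lower (10%). All 11474 genes above it gave 10.5% and 12.5%, and none of the 51 dim P450 genes was called. These shares too describe and do not test. Cyp39a1 was at 5.80, 5.80 and 6.13 in wild type and at 3.89, 4.67, 4.69 and 4.82 in mutants, apart from each other (-1.39 ± 0.252, limma adjusted p = 0.00159). Cyp2d22 was higher, at 6.95, 6.82, 6.85 and 7.27 against 6.35, 6.10 and 6.38 (0.70 ± 0.143, adjusted p = 0.00382), and its second probe set gave 0.89 ± 0.153. Cyp27a1 was higher, at 9.52, 10.14, 9.64 and 9.93 against 9.42, 9.39 and 9.10 (0.51 ± 0.165, adjusted p = 0.0469), and without wild-type replicate 3 this comparison had 2 calls, not 4. The Cyp27a1 call was lost in 11 of 17 alternatives, with changes of 0.40 to 0.60, while that of Cyp39a1 was kept in 16 of 16. Cyp2j6 was lower, at 5.38, 5.54, 5.55 and 5.31 against 5.94, 5.73 and 6.22 (-0.52 ± 0.129, adjusted p = 0.012), near the dim level.

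Under the trap, 4 of 71 P450 genes differed in mutant muscle (5.63%), where 6.33% of all genes were called. Cyp39a1 was at 5.01, 5.93, 6.09 and 5.34 in treated mutants, above every untreated mutant (1.07 ± 0.233, limma adjusted p = 0.0138). Cyp27a1 was at 8.81, 9.16, 9.45 and 9.26, below every untreated mutant (-0.64 ± 0.152, adjusted p = 0.0224), and Cyp2d22 at 6.35, 6.52, 6.30 and 6.66, also below (-0.51 ± 0.133, adjusted p = 0.0313). The fourth, Cyp1a1, was dim (0.77 ± 0.183, adjusted p = 0.0224). Cyp39a1 was called without any 1 of the 8 mutant muscles, while without treated mutant replicate 2 it was the only call of the 4. Means of 8 fibroblast markers were 11.01 to 11.14 in untreated wild-type muscle, 8.47 to 9.72 in untreated mutants, 10.01 to 10.47 in treated mutants and 10.90 to 11.29 in treated wild type. Their part in the change of Cyp39a1 was not tested. In wild-type muscle Cyp27a1 was at 8.73, 8.61, 8.88 and 8.598 under the trap, below every untreated wild type, and was not called (-0.60 ± 0.165, adjusted p = 0.214).

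Genes of the same pathways were also read in untreated mutant muscle, where 16% of all genes were called. Of 15 retinoic acid genes 4 were lower and 1 higher, with Aldh1a7 (-2.90 ± 0.681) and Aldh1a2 (-1.93 ± 0.34) the largest. Of 17 sterol synthesis genes 3 were lower and 1 higher, with Fdft1 at 1.15 ± 0.217 and Dhcr7, the last enzyme of cholesterol synthesis, at -1.09 ± 0.278. Of 18 eicosanoid genes 4 were lower and 1 higher, led by Ptgis, prostacyclin synthase, itself a P450 by structure (-1.27 ± 0.144). Of 22 transcription factors 5 were higher and 1 lower, led by Cebpb (1.04 ± 0.224).

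**Figure D4:**
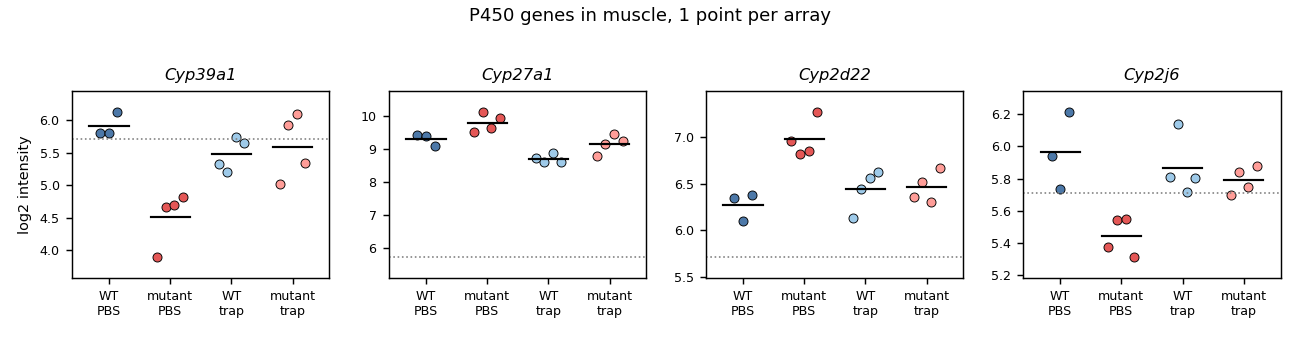
Log2 intensity of 4 P450 genes in muscle, 1 point per array, with group means as bars and the dim level (5.71) dotted. Untreated mutants lie apart from untreated wild type for all 4 genes, and treated mutants lie beyond all untreated mutants on the wild-type side for Cyp39a1, Cyp27a1, Cyp2d22 and Cyp2j6.

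The other muscle comparisons had 0 P450 calls by limma. Percentages below are of adjusted calls over all genes. Counts at an unadjusted p have no such share beside them. For mutants against wild type under the trap, 1.66% of all genes were called and 8 P450 genes had an unadjusted p under 0.05. For the trap in wild type the figures were 0.0619% and 5, for the interaction 0.169% and 8, and for treated mutants against untreated wild type 0.973% and 5. Cyp2e1 came nearest in the last, at 10.49, 11.84, 10.16 and 10.16 in treated mutants against 8.08, 9.28 and 9.68 (1.65 ± 0.422, adjusted p = 0.0822). The groups did not overlap, and treated mutant replicate 2 was the highest. Its adipocyte marker mean was 10.95, where the other 14 muscles had 8.68 to 9.93, and the part of fat in Cyp2e1 was not tested. The interaction of Cyp39a1 was 1.51 ± 0.343 (adjusted p = 0.0855).

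Tissues of untreated wild-type animals were compared in a fit over the 30 arrays together, with a random animal block. There 26 P450 genes were higher in kidney (36.6%) and 13 in muscle (18.3%). Over all genes 28.5% were higher in kidney and 36.1% in muscle. The genes highest in kidney relative to muscle were Cyp2j5 (9.16 ± 0.324), Cyp2d26 (7.13 ± 0.364), Cyp7b1 (6.71 ± 0.681), Cyp4a14 (6.61 ± 0.544), Cyp2j11 (6.52 ± 0.313), Cyp4b1 (6.36 ± 0.284), Cyp2j13 (5.70 ± 0.596) and Cyp4a31 (5.45 ± 0.385). The untreated wild-type muscle means of Cyp2j5, Cyp2d26, Cyp7b1, Cyp4a14, Cyp2j11 and Cyp2j13 were below the dim level, so background limits these differences. Differences toward muscle included Cyp2b10 (-1.19 ± 0.134), Cyp39a1 (-0.90 ± 0.274) and Cyp27a1 (-0.80 ± 0.158). Cyp2b10 and Cyp39a1 were below the dim level in untreated wild-type kidney, so background limits these differences too, and Cyp4x1, also called, was dim in both tissues. Cyp27a1, at 9.42, 9.39 and 9.10 in untreated wild-type muscle, was above the dim level in every group of both tissues.

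The genotype effect under PBS differed between the tissues for 28 P450 genes in the same fit. It was lower in kidney than in muscle for 19 (26.8%), where 17.5% of all genes were. It was higher in kidney for 9 (12.7%), where 19.7% of all genes were. Cyp39a1 and Cyp27a1 were called in each tissue, in opposite directions, although the muscle call of Cyp27a1 was lost in most alternatives. Cyp39a1 was higher in mutant kidney and lower in mutant muscle (difference 2.65 ± 0.363, limma adjusted p = 1.14e-06), and Cyp27a1 lower in kidney and higher in muscle (-1.60 ± 0.209, adjusted p = 5.39e-07). Cyp1b1 (2.28 ± 0.418) and Cyp4v3 (2.08 ± 0.182) had the next largest differences toward kidney, and Cyp2d12 (-3.88 ± 0.213), Cyp2e1 (-3.82 ± 0.699) and Cyp2j13 (-3.71 ± 0.788) the largest of the opposite sign. Cyp51 differed by -1.98 ± 0.448, with a change in muscle alone of -0.75 ± 0.382 that was not called (adjusted p = 0.207).

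**Figure D5:**
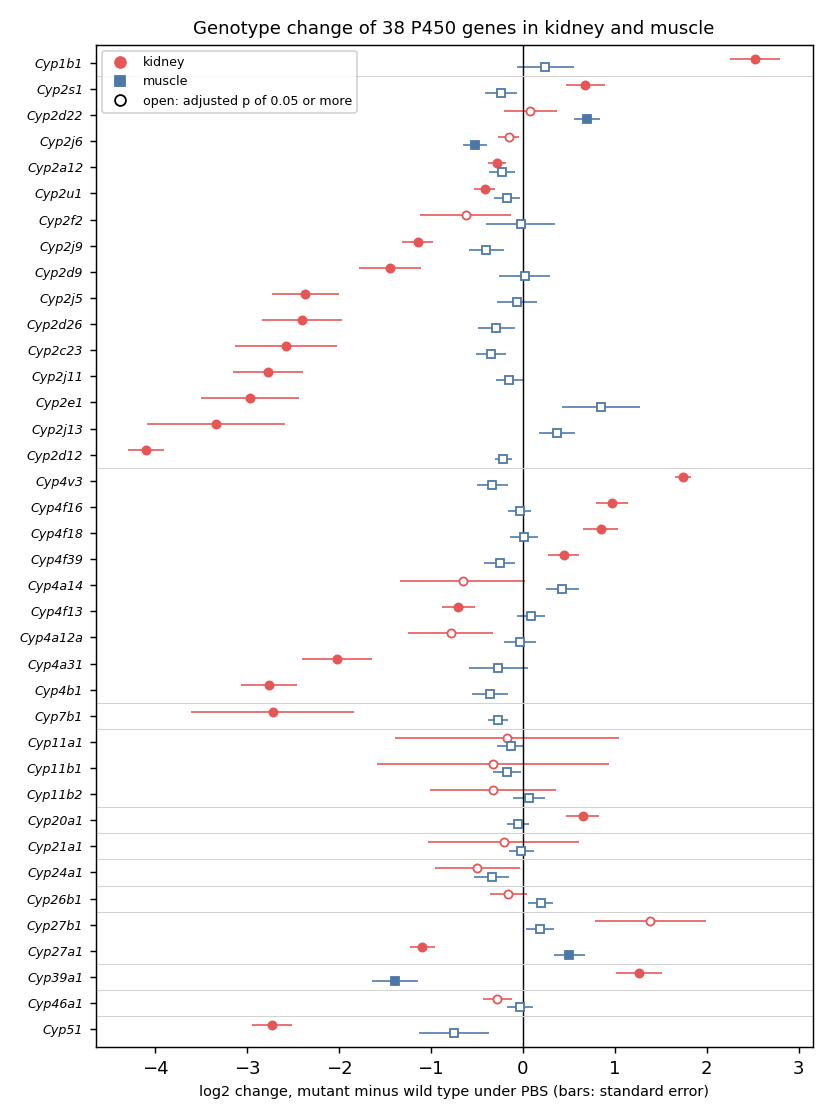
Log2 change between mutants and wild type under PBS, with the standard error as a bar, for the 38 P450 genes above the dim level in kidney, ordered by family. Red circles are kidney and blue squares muscle, filled where the limma adjusted p was under 0.05. Kidney values run from -4.09 (Cyp2d12) to 2.52 (Cyp1b1), and only Cyp2d22, Cyp2j6, Cyp27a1 and Cyp39a1 are filled for muscle.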

How the data were processed

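Snap-frozen kidney and muscle RNA was labelled with biotin and read on Affymetrix mouse arrays, per the labels' protocols. The deposited log2 intensities, 1 per probe set and array, were used as the authors gave them. How they were normalized is not given in the sources used, and the log scale was inferred from the range of values. Array medians were 6.09 to 6.24 in kidney and 5.94 to 6.06 in muscle, and no further scaling was applied. Of 35088 probe sets 31563 had 1 gene symbol, 825 several and 2700 none, and only the first were used. They held 92 P450 probe sets, and 17 P450 genes had more than 1. Cyp24a1, Cyp4f18 and Cyp7b1 used another probe set in muscle than in kidney.

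Each tissue was fitted with limma 3.58.1 (R 4.3.3) as 4 group means, with Benjamini-Hochberg adjustment over 17782 genes. Tissues were compared in a fit of all arrays, with the animal number of the sample titles as a random block (consensus correlation 0.0749), taking the probe set brightest over both tissues. Genes described per array were the 2 largest called changes of each family in untreated kidney and a fixed roster. Other comparisons give up to 8 called genes in each direction, and other lists their 3 largest calls. The CYP11 genes, Cyp21a1 and members named without calls beyond the roster were chosen after their values were seen. The members, lists and tests were chosen with earlier results of these data known. The genotype comparison under PBS was also run on simulated data. A log2 change of 1 was recovered for 89% of altered genes in kidney and 85% in muscle. A change of 2 was recovered for 100% and 98%, and 16 unaltered genes were called in each tissue. The simulation altered 200 of 17782 genes, far fewer than were called in kidney, and used normal noise. Replicate numbers were not used to pair samples in the main fits. Of same-numbered pairs 4 of 21 in kidney and 6 of 21 in muscle correlated above 0.1. Median correlations were 0.0378 and -0.0167, against -0.0168 and -0.0133 for other pairs. No such tally was made for other pairs, so these values cannot settle whether the numbers pair samples. Promoters came from RefSeq (GRCm38.p6), searched with pandas 2.3.3 in Python 3.11.15, and figures were drawn with matplotlib 3.10.9.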

Additional observations from a re-analysis of the deposited data

Results flagged for a closer look

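Within groups of 4, a sample was taken as far from the others where its gap to the nearest, as a share of the range, exceeded Dixon's critical value, which chance gives in about 1 in 20 groups. Of 93 groups tested 8 had such a sample. In kidney these were Cyp2e1 in untreated mutant replicate 2 (11.56, others 9.28 to 9.40), Cyp7b1 in untreated mutant replicate 4 (9.50, others 8.83 to 8.93) and Cyp4f13 in treated mutant replicate 1 (6.97, others 6.58 to 6.62). Treated mutant replicate 2 gave 4 more, Cyp11a1 (11.01), Cyp11b1 (11.48), Cyp11b2 (8.34) and Cyp21a1 (10.48). These 4 genes were chosen after their values were seen, so their flags cannot be set against the 1 in 20. In muscle the flagged sample was untreated mutant replicate 1 for Cyp39a1 (3.89, others 4.67 to 4.82).

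The genotype effect of Cyp4v3 in kidney differed between PBS and the trap by -0.81 (limma adjusted p = 0.00469). Between kidney and muscle under PBS the genotype effect differed most, toward lower values in kidney, for Cyp2d12 (-3.88), Cyp2e1 (-3.82), Cyp2j13 (-3.71), Cyp2j11 (-2.62), Cyp7b1 (-2.43), Cyp4b1 (-2.40), Cyp2j5 (-2.30) and Cyp2c23 (-2.23), with adjusted p values from 2.33e-13 to 0.035. Toward higher values in kidney it differed for Cyp39a1 (2.65), Cyp1b1 (2.28), Cyp4v3 (2.08), Cyp4f16 (1.00), Cyp4f18 (0.92), Cyp2s1 (0.92), Cyp20a1 (0.70) and Cyp4f39 (0.70), with adjusted p values from 6.67e-10 to 0.0202. Of 4 P450 probe sets annotated to several symbols, which no comparison used, 1 was higher in all untreated mutant kidneys than in all untreated wild-type kidneys, by 0.793. This flag looked for rises only. The others had larger falls or little change, with mutant minus wild-type differences of -2.407 (means 7.615 against 10.02), -1.742 (10.76 against 12.5) and -0.1234 (2.615 against 2.738).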

How the results depend on the processing

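Counts of called P450 genes are given as the main value followed by the alternatives that moved it by more than 1.5 times. Restricted to genes above the median level, the kidney genotype comparison under PBS fell from 35 to 17, that under the trap from 31 to 16, treated mutants against untreated wild type from 27 to 14, and the trap in wild-type kidney from 2 to 1. In muscle the genotype comparison under PBS and the trap in mutants each fell from 4 to 2, the tissue comparison from 39 to 15 and the tissue difference in genotype effect from 28 to 12. Fewer genes are tested there. With a 2-fold minimum the same counts were 18, 14, 13, 1, 1, 1, 24 and 18, with 1 for the trap in mutant kidney (main 3) and 0 for the kidney interaction (main 1). With array weights the kidney interaction had 2, and in muscle the genotype comparison had 7 under PBS and 5 under the trap (main 0), and the trap in wild type, the interaction and treated mutants against untreated wild type had 1 each (main 0). With Eif2s3y as a covariate the trap in mutants had 1 call in each tissue, the trap in wild-type kidney 1, and treated mutants against untreated wild type in muscle 1. Fitting only the 2 groups compared gave 1 for the trap in mutants of each tissue and in wild-type kidney, and 2 for the muscle genotype comparison under PBS. Averaging a gene's probe sets gave 1 for the trap in wild-type kidney. With a replicate block the trap in wild-type kidney had 1 call, and in muscle the interaction and treated mutants against untreated wild type had 1 each, and other counts stayed within 1.5 times. Whether the numbers pair the samples was not settled. The causes of these shifts were not tested. Leaving out 1 replicate gave 1 to 8 calls for the trap in mutant kidney, 1 to 6 in wild-type kidney and 1 to 3 for the kidney interaction. In muscle it gave 2 to 6 for the genotype comparison under PBS, 0 to 1 under the trap, 1 to 6 for the trap in mutants and 0 to 2 for the interaction. Of the single-gene values under all alternatives, 2812 kept direction and side of the threshold, 320 lost and 7 gained the call, and 15 changed sign, none of them called. These were genotype changes under PBS close to 0. Cyp2d22 in kidney (main 0.08) was -0.039 with quantile normalization and -0.0070 with median centring. In muscle Cyp2r1 (main -0.0080) was 0.031, 0.046 and 0.0078 with quantile normalization, median centring and the replicate block, Cyp1b1 (main 0.24) was -0.10 with averaged probe sets, and with the Eif2s3y covariate Cyp2j5 (main -0.06) was 0.17 and Cyp4f13 (main 0.09) was -0.077. Leaving out 1 replicate gave -0.048 to 0.25 for Cyp2d22 in kidney, and in muscle -0.057 to 0.43 for Cyp1b1, -0.28 to 0.19 for Cyp2j5, -0.13 to 0.075 for Cyp2r1 and -0.029 to 0.16 for Cyp4f13. A covariate of Ddx3y was not run, as that gene is not analysed here. Shares of all genes called under each alternative are not given here. Dim probe sets and the number of arrays limit all of these counts.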
